A study of Drosophila melanogaster with 3 samples.

Results

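The Enhancer of split complex, E(spl), is a cluster of Notch target genes on chromosome arm 3R of Drosophila melanogaster. The 10 genes described here were taken from a given list and are 7 basic helix-loop-helix (bHLH) genes and 3 Bearded-family genes, all protein-coding, among 13945 protein-coding genes on the chromosome arms. Their gene bodies plus 5 kb at each outer end were read as 1 interval, chr3R:25992621-26046008 on the dm6 assembly, 53.4 kb long. A peak belonged to the complex when its summit lay in that interval. By this rule the complex held 13 of the 6458 peaks that passed the irreproducible discovery rate (IDR), a threshold on how well peak ranks repeat between replicates. It held 41 of 30000 peaks in the list called on pooled replicates, and 35, 38 and 44 of 30000 in the lists of replicates 1, 2 and 3.

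The peaks came from chromatin immunoprecipitation with sequencing (ChIP-seq), with an antibody against green fluorescent protein (GFP), in whole embryos of both sexes aged 0 to 14 h. The embryos were from a transgenic line that stably expresses the protein CG15601 with GFP at its C-terminal end. Chromatin was sonicated to fragments of 200 to 800 bp, and all 3 samples came from this 1 line. The 3 samples are biological replicates of this 1 group, and no sample without the tag is among them, so that binding to the tagged protein and recovery without it cannot be told apart. A peak from embryos of this age range is a sum over stages and cell types. The signal of a peak is the value the authors' peak caller gave it, and it is not scaled between lists. Peaks are therefore compared by rank within a list, where rank 1 is the strongest.

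Notch signalling lets neighbouring cells take different fates. On activation the Notch intracellular domain joins the DNA-binding protein Suppressor of Hairless, Su(H), and switches on the E(spl) genes. The E(spl) bHLH proteins are repressors that recruit the corepressor Groucho, the product of gro, and in the embryonic neurectoderm they keep cells from becoming neural precursors. Bearded-family proteins are small and bind Neuralized, the ubiquitin ligase that promotes endocytosis of the Notch ligand Delta, and inhibit it.

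Of the 10 promoters, 4 carried an IDR summit within 500 bp of the transcription start site (TSS), and all 4 belonged to bHLH genes: E(spl)m7-HLH, E(spl)m3-HLH, E(spl)mdelta-HLH and E(spl)mbeta-HLH. In the same window 26.7% of all protein-coding genes had an IDR summit. The 101 bases around each of these 4 summits are shown because they are the sequences the peaks point to. They are given 5′ to 3′ on the strand of the gene, from the RefSeq copy of genome release 6, with the TATA word TATAAA or its reverse complement in capitals.
E(spl)m7-HLH, chr3R:26036596-26036696, plus strand: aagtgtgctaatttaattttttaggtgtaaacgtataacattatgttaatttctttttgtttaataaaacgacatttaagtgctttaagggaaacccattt
E(spl)m3-HLH, chr3R:26021357-26021457, plus strand: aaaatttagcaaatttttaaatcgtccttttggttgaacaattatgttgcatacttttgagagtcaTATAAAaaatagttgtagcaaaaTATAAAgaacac
E(spl)mdelta-HLH, chr3R:25997210-25997310, plus strand: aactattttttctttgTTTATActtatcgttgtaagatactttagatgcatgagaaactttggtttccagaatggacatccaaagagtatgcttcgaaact
E(spl)mbeta-HLH, chr3R:26006037-26006137, minus strand: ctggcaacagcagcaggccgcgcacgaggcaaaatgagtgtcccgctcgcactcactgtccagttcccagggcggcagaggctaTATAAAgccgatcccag
The first 3 windows are rich in A and T, with 24.8%, 24.8% and 31.7% G and C, and lie well upstream of their genes. The window of E(spl)mbeta-HLH has 61.4% G and C, and the TATA word in it lies 30 bp upstream of the TSS.

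The promoters of E(spl)mgamma-HLH, E(spl)m8-HLH and E(spl)m4-BFM had no IDR summit. Each holds a pair of Su(H) words facing each other, a layout known as the Su(H) paired site of Notch-responsive promoters. E(spl)m5-HLH, E(spl)malpha-BFM and E(spl)m6-BFM had neither an IDR summit nor such a pair. The words searched were CGTGGGAA, CGTGAGAA, TGTGGGAA and TGTGAGAA on both strands. The pairs are shown with the words in capitals, the second of each pair on the opposite strand.
E(spl)mgamma-HLH, chr3R:25999552-25999594, plus strand: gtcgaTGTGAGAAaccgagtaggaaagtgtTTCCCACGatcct
E(spl)m8-HLH, chr3R:26040011-26040053, plus strand: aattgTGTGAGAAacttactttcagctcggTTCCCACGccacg
E(spl)m4-BFM, chr3R:26024853-26024895, minus strand: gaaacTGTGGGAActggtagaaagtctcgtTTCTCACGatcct
The pairs begin 294, 224 and 311 bp upstream of the TSS. The spacing is the same in all 3. Only the pair of E(spl)m4-BFM lay within a peak of the pooled list, a weak one of rank 11497. Among the 500 bp upstream of the TSS of all 13945 protein-coding genes, a pair with these words and this spacing was found at 3 genes, which are these 3. The pair was searched for after the sequences had been seen.

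The complex was dense in peaks. It held 244 IDR peaks per Mb, against 48.2 per Mb over the 134 Mb of the chromosome arms, a ratio of 5.05. Among the strongest 6458 peaks of each replicate list the interval held 13, 15 and 15 in replicates 1, 2 and 3, which are ratios of 5.05, 5.82 and 5.82. Over the full lists of 30000 peaks the ratios were lower, 2.93, 3.18 and 3.68 in replicates 1, 2 and 3 and 3.43 in the pooled list. The size of the excess thus depended on how far down the lists peaks were counted. The chromosome arms were also divided into 2504 tiles as long as the interval. The median tile held 2 IDR peaks, and 869 tiles held 0. In 19 tiles (0.759%) there were at least 13, and 10 tiles held more, up to 22. The complex was thus among the most crowded stretches of this length without being the most crowded. The tiles include the sequence of the complex itself.

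**Figure D1:**
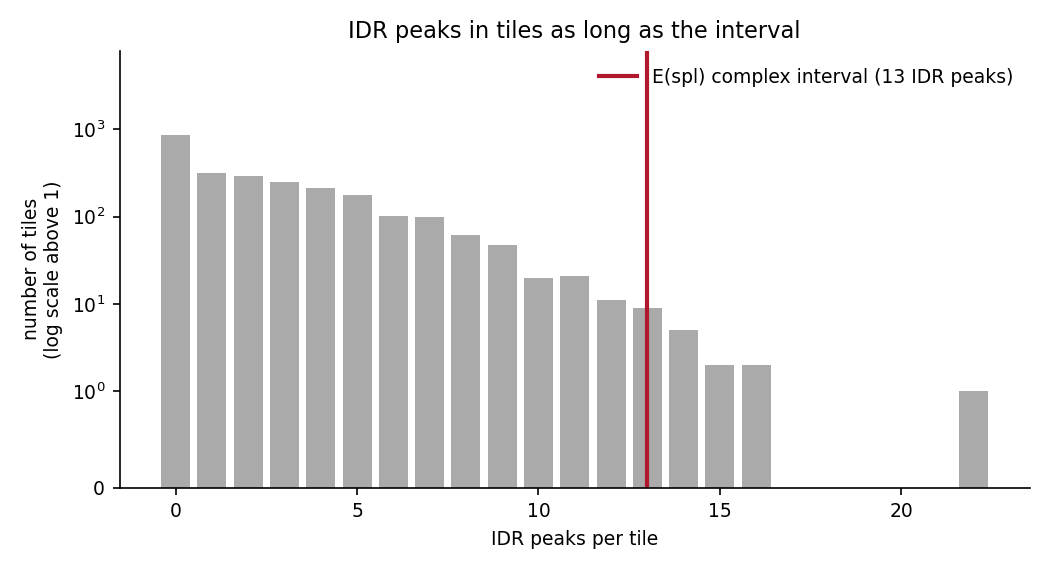
IDR peaks in the E(spl) complex interval (red line, 13 peaks) and in 2504 tiles of the same length along the chromosome arms (grey bars). The x axis is the number of IDR peaks per tile and the y axis the number of tiles on a scale that is logarithmic above 1; the median tile held 2.

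The 13 IDR peaks were mostly strong ones. Their ranks ran from 171 to 4719 in the IDR list, with a median of 829, and 8 of them ranked 1000 or better. The strongest, at E(spl)m7-HLH, had a pooled signal of 1620, and the weakest, at E(spl)mbeta-HLH, a signal of 234. The lowest signal in the whole IDR list was 182, and the pooled peak of the complex just below it had 180 (rank 6544), 1992 bp upstream of E(spl)m7-HLH. Summits lay in intergenic sequence for 11 of the 13 and in an intron for 2, in CG43116 and gro. None lay in an exon.

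Most of these summits were not at the start of a member gene. An annotated TSS of any gene lay within 500 bp of 8 of the 13, and for 4 of the 13 the nearest TSS was that of a member. Distal peaks were among the strong ones. A peak 1757 bp upstream of E(spl)malpha-BFM had rank 779 in the IDR list and ranks 551, 1082 and 945 in replicates 1, 2 and 3. Another lay 823 bp downstream of the same TSS, beyond the annotated gene end. It was at rank 1335 of the IDR list and at ranks 1877, 1106 and 1311 of replicates 1, 2 and 3. Both were well inside the length of the IDR list in every replicate.

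**Figure D2:**
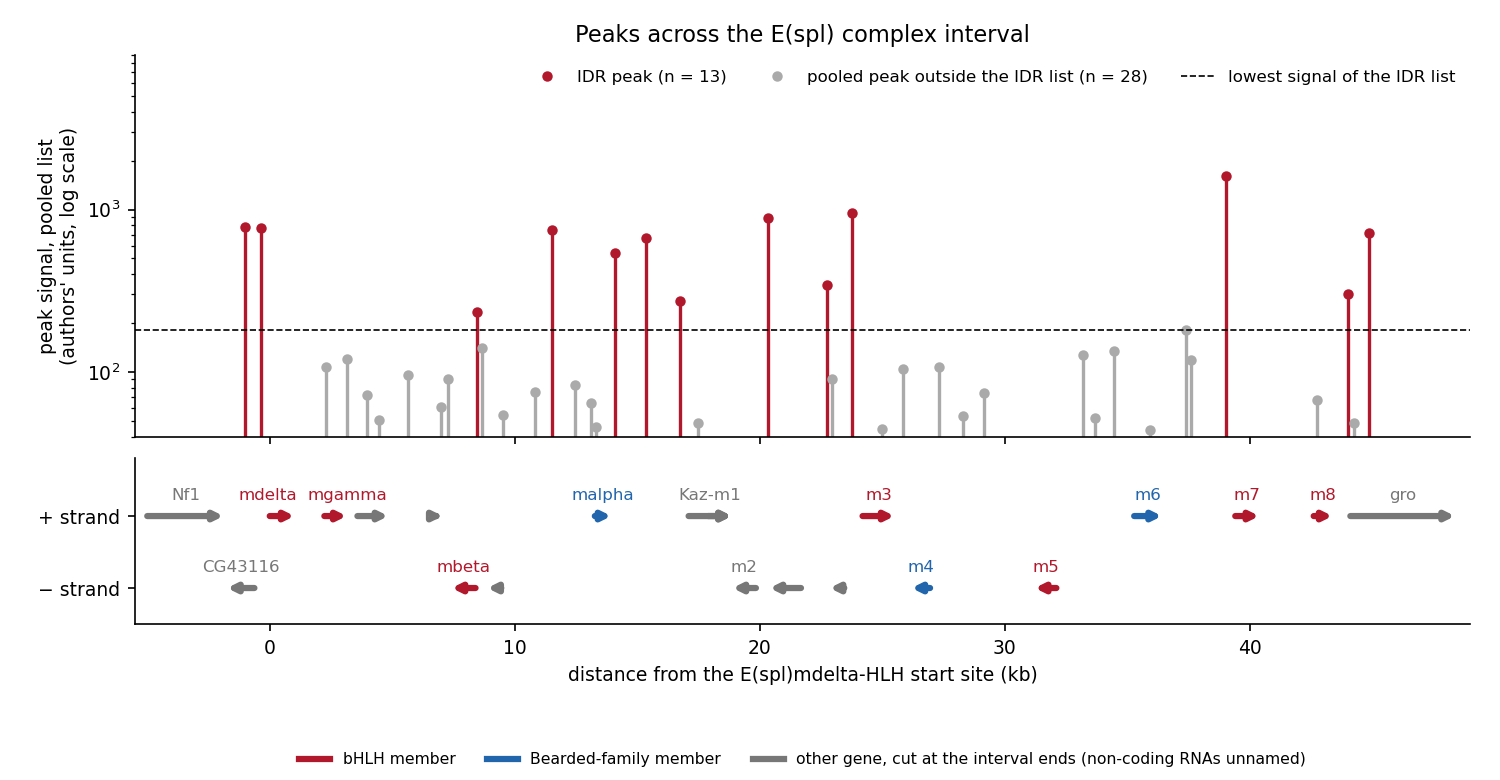
Peaks of the pooled list across the complex (upper panel) over the annotated genes (lower panel), by distance in kb from the E(spl)mdelta-HLH start site. The y axis is the authors' peak signal on a log scale; the 13 IDR peaks (red) leave a stretch of 15.2 kb between the peaks of E(spl)m3-HLH and E(spl)m7-HLH that holds only weaker peaks (grey), and arrows show the direction of transcription.

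The IDR peaks were not spread evenly. Neighbouring IDR summits were a median of 2483 bp apart, and the longest gap was 15239 bp, from the summit at E(spl)m3-HLH to that at E(spl)m7-HLH. E(spl)m4-BFM, E(spl)m5-HLH and E(spl)m6-BFM lie in that gap. It held 11 weaker pooled peaks, the one just below the IDR threshold among them. By rank in the pooled list the gap is thus a stretch of low signal and not one without peaks. In replicate 3, the peak 824 bp upstream of E(spl)m6-BFM and that 1992 bp upstream of E(spl)m7-HLH had ranks 4803 and 5905. Both are within the length of the IDR list, 6458. In replicates 1 and 2 they were beyond it, with ranks 10863 and 11325 for the first and 7946 and 7017 for the second.

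Promoter peaks of the bHLH genes were strong at E(spl)m7-HLH, E(spl)m3-HLH and E(spl)mdelta-HLH, intermediate at E(spl)mbeta-HLH, and weak or absent at the others. E(spl)m7-HLH was first of the members in every list, with ranks 205, 155 and 204 in replicates 1, 2 and 3 and rank 171 in the IDR list. Its summit lay 402, 385 and 397 bp upstream of the TSS in the 3 replicates. The gene (FBgn0002633) spans chr3R:26037038-26038019 on the plus strand. The signal of its peak was 429, 620 and 565 in the authors' units, against 41.4, 110 and 111 for that of E(spl)mbeta-HLH in replicates 1, 2 and 3. E(spl)m3-HLH (FBgn0002609, chr3R:26021823-26023127, plus strand) followed, with ranks 251, 718 and 653 and a summit 428, 427 and 431 bp upstream. The place of each summit thus moved little between replicates. E(spl)mdelta-HLH (FBgn0002734, chr3R:25997621-25998633, plus strand) came next, with ranks 462, 812 and 1208 and a summit 361, 350 and 341 bp upstream. E(spl)mbeta-HLH (FBgn0002733, chr3R:26005046-26006023, minus strand) was the weakest of the 4, with ranks 7417, 3635 and 3931. Its summit lay 88 bp downstream of the TSS in replicate 1 and 71 and 200 bp upstream in replicates 2 and 3. This member was the only one of the 4 that stood outside the strongest 6458 peaks of a replicate, namely replicate 1, and its summit moved the most. The order of these 4 genes was the same in all 3 replicates, and E(spl)m3-HLH and E(spl)mdelta-HLH were neighbours whose ranges of ranks overlapped between replicates.

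The other 3 bHLH genes had weak promoter peaks or none. E(spl)mgamma-HLH had a summit 54, 91 and 97 bp downstream of the TSS with ranks 29350, 14495 and 10802 in replicates 1, 2 and 3. E(spl)m8-HLH had no summit within 500 bp in replicate 1 and ranks 24229 and 15281 in replicates 2 and 3. E(spl)m5-HLH had no summit within 500 bp in any replicate or in the pooled list, and its nearest IDR summit was 6911 bp away, the farthest of all members. Every rank that E(spl)mgamma-HLH and E(spl)m8-HLH had was beyond the length of the IDR list.

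The Bearded-family promoters had weak peaks or none. E(spl)malpha-BFM had a summit within 500 bp in replicate 3 only, with rank 12321. E(spl)m4-BFM had ranks 16468 and 22281 in replicates 2 and 3 and no summit in the window in replicate 1. A replicate 1 peak of rank 8598 did overlap its pooled peak, whose summit lay 346 bp upstream of the TSS. The replicate 1 summit lay 160 bp farther upstream, just past the window. E(spl)m6-BFM had rank 23156 in replicate 1 and no summit in the window in the other 2 replicates. Past the window, a pooled peak 824 bp upstream of its TSS was overlapped by peaks of ranks 10863, 11325 and 4803 in replicates 1, 2 and 3. No Bearded-family member had a summit in the window in all 3 replicates, whereas 5 bHLH members did. Of the 13945 protein-coding genes, 4753 outside the complex had one in all 3 replicates.

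**Figure D3:**
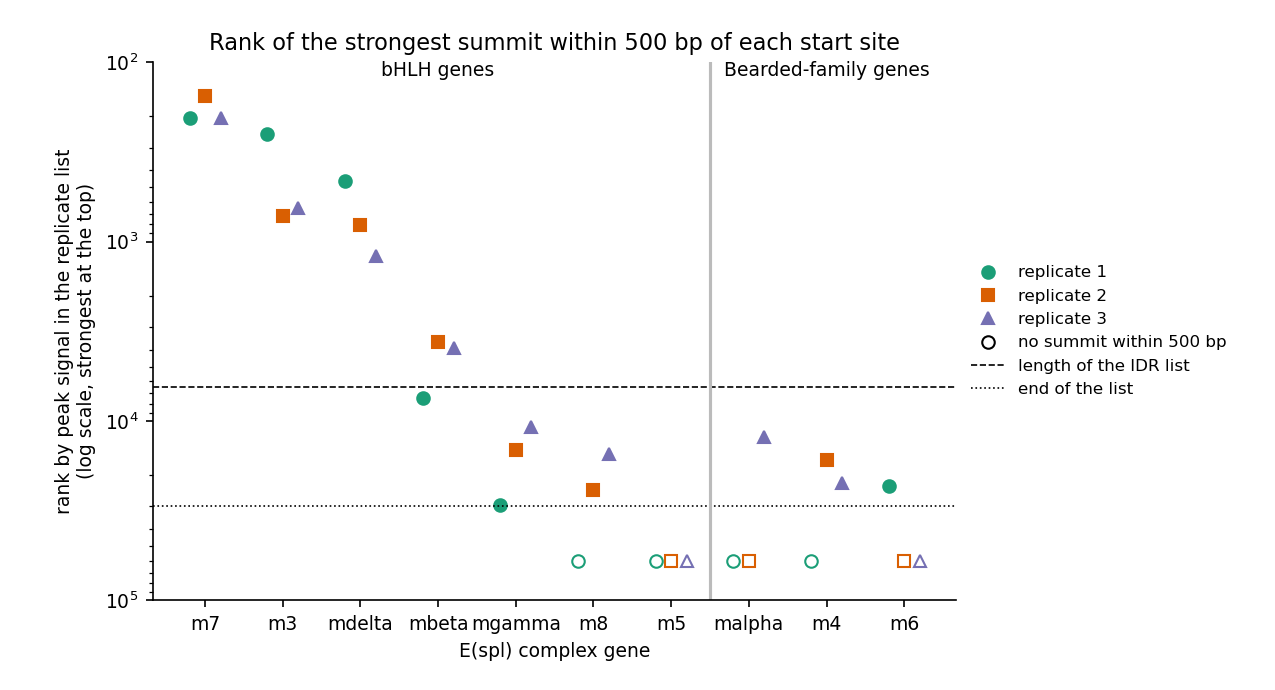
Rank of the strongest summit within 500 bp of each member's start site in the lists of replicates 1, 2 and 3 (log scale, strongest at the top), with bHLH genes left of Bearded-family genes. Open symbols mark replicates with no summit in the window; E(spl)m7-HLH, E(spl)m3-HLH and E(spl)mdelta-HLH lie between ranks 155 and 1208 in all 3 replicates, and all Bearded-family points lie beyond the length of the IDR list, 6458.

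Side by side, IDR summits were at 4 of 7 bHLH promoters and at 0 of 3 Bearded-family promoters, beside 26.7% of all protein-coding genes. With so few genes these counts do not set the Bearded family apart. A promoter summit of any rank was found at 5, 6 and 6 of 7 bHLH genes and at 1, 1 and 2 of 3 Bearded-family genes in replicates 1, 2 and 3. The shares over all protein-coding genes were 44.2%, 51.0% and 52.1%. In the pooled list it was 6 of 7 against 2 of 3, with 47.9% of all protein-coding genes. Promoters with no summit were given the rank after the end of the list, 30001. This includes E(spl)m4-BFM in replicate 1, where a peak of rank 8598 had its summit just past the window. The median rank was then 7417, 3635 and 3931 for bHLH genes, against 30001, 30001 and 22281 for Bearded-family genes in replicates 1, 2 and 3. On the log10 scale the difference of medians, bHLH minus Bearded, was -0.61, -0.92 and -0.75 (mean -0.76 ± 0.155, SD, n = 3 replicates). The bHLH genes thus ranked stronger in 3 of 3 replicates in this window. With 3 replicates an exact two-sided sign-flip test cannot give a p below 0.25, and genes are not replicates, so the difference was not tested. E(spl)mbeta-HLH gave the bHLH median in each replicate. Among the 4 member promoters with an IDR summit, its peak alone was lost when the IDR peaks had to match both remaining replicates without replicate 2 or without replicate 3, which left 3 of 7 bHLH promoters.

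The difference between the families depended on the window. Within 250 bp of the TSS an IDR summit was found at 1 of the 7 bHLH promoters, that of E(spl)mbeta-HLH, and at 0 of the 3 Bearded-family promoters, beside 22.4% of all protein-coding genes. Within 1000 bp it was 4 of 7 bHLH against 1 of 3 Bearded-family genes, with 30.0% of all protein-coding genes, since the peak past the end of E(spl)malpha-BFM was then counted. The difference of median log10 ranks, bHLH minus Bearded, was -0.13 within 250 bp and -0.21 within 1000 bp, against -0.76 within 500 bp. The nearest IDR summit was a median of 416 bp from the TSS of bHLH genes (64 to 6911 bp) and 3172 bp from that of Bearded-family genes (823 to 3735 bp), and these ranges overlap. E(spl)m2-BFM, a Bearded-family gene of the complex that the list of 10 leaves out, had an IDR summit of rank 572 at 510 bp upstream of its TSS, 10 bp past the window. Its ranks in replicates 1, 2 and 3 were 387, 556 and 1191, and in replicate 2 the summit was inside the window, at 493 bp. A strong upstream peak was therefore also present at a Bearded-family gene.

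The summits of E(spl)m7-HLH, E(spl)m3-HLH and E(spl)mdelta-HLH were far upstream for promoter peaks. They lay 392, 416 and 361 bp upstream in the IDR list. Over the 3728 protein-coding genes with an IDR summit within 500 bp, the median position was -123 bp (negative is upstream), and 17.7% had it more than 250 bp upstream. For 2 of the 3 another gene's TSS was nearer. The summit at E(spl)mdelta-HLH was 264 bp from the TSS of CG43116 on the other strand, and that at E(spl)m3-HLH was 331 bp from the TSS of lncRNA:CR43644. Counted only where the member holds the nearest TSS (a count added later, with the values in view), 2 of 10 members had an IDR summit, E(spl)m7-HLH and E(spl)mbeta-HLH.

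**Figure D4:**
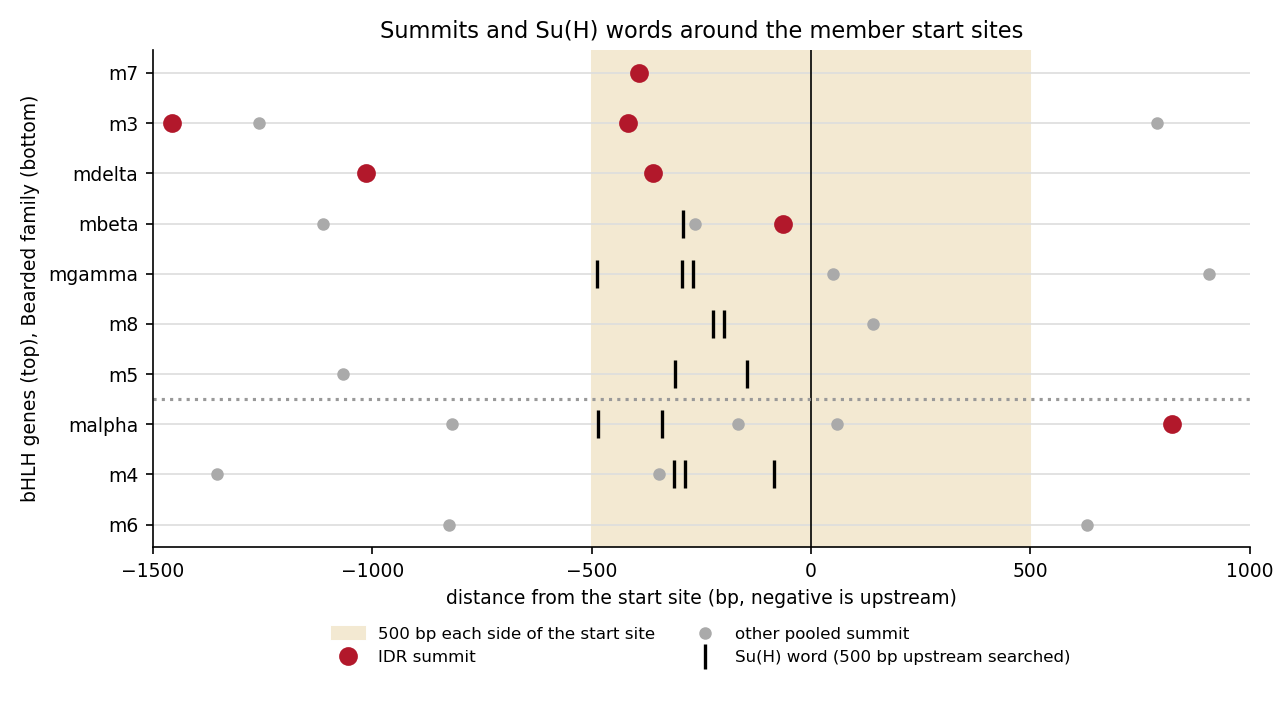
Summits of the pooled list and Su(H) words by distance from each member's start site (x axis, bp, negative is upstream; 1 row per gene, bHLH genes above Bearded-family genes). IDR summits are red, other pooled summits grey, Su(H) words black bars (exact words only, searched in the 500 bp upstream of the start site). Words stand at 1 of the 4 genes with an IDR summit in the shaded window and at 5 of the 6 without.

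Su(H) words were counted at promoters with and without an IDR summit, and no test of the difference was run. In the 500 bp upstream of the TSS, 6 of 10 members held at least 1 Su(H) word, against 6.61% of all protein-coding genes. Of the 4 members with an IDR promoter summit 1 held such a word, E(spl)mbeta-HLH, with 1 word. Of the 6 members without an IDR promoter summit 5 held words, 12 in all, and the exception was E(spl)m6-BFM. E(spl)mbeta-HLH thus had both a word and a summit, and E(spl)m6-BFM had neither. The whole interval held 40 Su(H) words, 7.49 per 10 kb against 1.06 per 10 kb over the chromosome arms. Of these 40, 1 lay within 100 bp of an IDR summit and 3 within 250 bp, and the median distance was 1359 bp. Seen from the summits, a Su(H) word stood within 50 bp of 1 of the 13 (7.69%), against 0.65% of all 6458 IDR summits, and within 100 bp of the same 1, against 1.83%. That single word lay under the IDR peak 1457 bp upstream of E(spl)m3-HLH (rank 2775), between lncRNA:CR43643 and lncRNA:CR43644. Only the exact words listed above were searched, so a promoter without a word can still hold a Su(H) site of another form. The words are a feature of the DNA alone, and whether Su(H) was bound was not measured.
Summit 1457 bp upstream of E(spl)m3-HLH, chr3R:26020316-26020416, plus strand: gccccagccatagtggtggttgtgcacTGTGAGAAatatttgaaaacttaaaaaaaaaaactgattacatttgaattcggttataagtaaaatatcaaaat

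Other words were counted in the same way. A TATA word on the gene's strand, beginning 20 to 45 bp upstream of the TSS, stood at 8 of 10 members, against 10.6% of all protein-coding genes, and was missing at E(spl)mdelta-HLH and E(spl)mgamma-HLH. This position was chosen after the sequences were seen. Such a word stood at 3 of the 4 members with an IDR promoter summit and at 5 of the 6 without. Within 50 bp of the 13 IDR summits, the TATA word stood at 5 (38.5%, against 21.9% of all 6458 IDR summits), and the E box CANNTG at 5 (38.5% against 36.7%). The proneural E boxes CAGCTG and CAGGTG, the bHLH repressor sites CACGTG and CACGCG, the Zelda core CAGGTA and the DRE core ATCGATA stood at 0 of the 13. Over all IDR summits the shares were 6.72% for the proneural E boxes, 2.28% for the repressor sites, 2.04% for the Zelda core and 5.09% for the DRE core. The N box CACNAG and the GAGA word GAGAG stood at 1 of 13 each (7.69%, against 9.46% and 9.74%). Words can overlap, since CANNTG contains the proneural E boxes and CACGTG.

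The summits of the complex lay in AT-rich DNA more often than IDR summits at large. The median G and C content within 50 bp was 27.7% for the 13 summits, against 33.7% for all IDR summits. Of the 13, 10 were below that overall median. The middle range of all IDR summits was 26.7% to 41.6%, which includes the median of the complex. The 13 were mostly strong peaks, and G and C content was not compared at equal rank. The lowest, at 15.8%, was the peak 2091 bp downstream of the E(spl)malpha-BFM start, which ranked 930 in the IDR list and 1184, 701 and 1117 in replicates 1, 2 and 3. It is shown as the extreme of the range that E(spl)mbeta-HLH closes at 61.4%.
Summit 2091 bp downstream of the E(spl)malpha-BFM start, chr3R:26012934-26013034, plus strand: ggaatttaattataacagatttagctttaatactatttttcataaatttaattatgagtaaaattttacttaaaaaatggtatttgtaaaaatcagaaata

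An IDR peak was matched when it overlapped by at least 50% of both peaks with one of the strongest 6458 peaks of a replicate. Of the 13, 11, 12 and 10 were matched in replicates 1, 2 and 3, and 9 (69.2%) in all 3, against 41.3% of all IDR peaks. The 13 were mostly strong, with a median rank of 829 among 6458, and the shares were not compared at equal rank. The 4 peaks not matched in all 3 were those at E(spl)mbeta-HLH, Kaz-m1 and the first TSS of gro, and the one upstream of E(spl)m2-BFM. The Kaz-m1 peak missed only the 50% rule, in all 3 replicates. The peak upstream of E(spl)m2-BFM also missed only that rule, in replicate 3. With 1 bp of overlap, 11 of the 13 (84.6%) were matched in the strongest 6458 of all 3, against 62.6% of all IDR peaks. With any overlap of 1 bp and all replicate peaks, 13 of 13 were matched in all 3 replicates, against 92.9%. The strongest replicate summit under an IDR peak lay a median of 15 bp from the IDR summit. In 12 of the 13 all 3 replicates were within 100 bp, and the exception was E(spl)mbeta-HLH, where the largest shift was 152 bp.

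Among the other genes that start in the interval, 3 of 4 protein-coding genes and 1 of 6 non-coding RNA genes had an IDR summit within 500 bp. Over the chromosome arms the shares were 26.7% of protein-coding genes and 9.08% of non-coding RNA genes. The gene gro, whose product is the corepressor of the E(spl) bHLH proteins, had 2 such peaks. The stronger, 149 bp upstream of an internal TSS, had rank 829 in the IDR list and ranks 616, 1061 and 1110 in replicates 1, 2 and 3. The weaker, 80 bp upstream of the first TSS, had rank 3366. Kaz-m1, the m1 gene of the complex, which encodes a Kazal-type protease inhibitor, had a peak of rank 3844 at 344 bp upstream, with ranks 3823, 4144 and 4330. CG43116, next to E(spl)mdelta-HLH, had a peak of rank 725 in its body, 390 bp downstream of its TSS, and shares the mdelta peak. The non-coding gene was lncRNA:CR43644, which shares the m3 peak. The others, lncRNA:CR45037, lncRNA:CR45038, lncRNA:CR45039, lncRNA:CR45040 and lncRNA:CR43643, were 986 to 3941 bp from the nearest IDR summit.

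Among 24 other genes of the Notch pathway, IDR promoter summits by the 500 bp window were found at 14 (58.3%); the share over all protein-coding genes was 26.7%. The list was drawn up with earlier results of these data known, includes gro, and was not tested. The strongest was numb, which encodes an inhibitor of Notch that dividing precursors pass on unequally. Its summit ranked 398 among IDR peaks, and 330, 393 and 527 in replicates 1, 2 and 3. Next were aph-1, a subunit of the gamma-secretase that cleaves Notch (rank 729), gro (829), bib, which encodes the channel-like protein Big brain (896), neur, which encodes Neuralized (982), and rumi, the gene of an O-glucosyltransferase that modifies Notch (993). The ubiquitin ligase genes mib1 and Nedd4 followed with ranks 2213 and 2740. In replicates 1, 2 and 3 mib1 ranked 8032, 2084 and 1186, the first of these beyond the length of the IDR list. The genes N, of the receptor, and Su(H) had summits of ranks 4301 and 4383 in the IDR list, and the ligand genes Delta and Ser had none there. Peaks at the start of Delta were present in all 3 replicates, with ranks 7485, 10851 and 7523, and Ser had one in replicate 2 only, with rank 13386.

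Relatives of the members were counted from lists of other bHLH and Bearded-family genes. Of 6 other Hairy and E(spl)-type bHLH genes, 1 had an IDR summit within 500 bp (16.7%), the pair-rule gene hairy (hry, rank 2479). It ranked 8791, 2200 and 1798 in replicates 1, 2 and 3, the first of these beyond the length of the IDR list. The share over all protein-coding genes was 26.7%, and with so few genes the counts do not set the relatives apart. Within 1000 bp it was 3 of 6, against 30.0% of all protein-coding genes. The genes dpn, Hey and Hesr had no summit within 500 bp in any replicate. For cwo there were summits of ranks 16623 and 21837 in replicates 1 and 3, and for Sidpn of ranks 17360 and 26141 in replicates 2 and 3. Of 5 other Bearded-family genes with an annotation, 0 had an IDR summit within 500 bp and 1 within 1000 bp. They were Brd, Tom, Ocho and BobA, outside the complex, and E(spl)m2-BFM, inside it, described above. Brd, Tom and Ocho had summits in all 3 replicates, between ranks 8518 and 27120, and BobA had none.

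Outside the complex, the protein-coding genes whose promoter ranks were closest to those of E(spl)m7-HLH were Acbp1, Piezo and Dp1. Likeness was the mean absolute difference of log10 rank over the 3 replicates, among 4753 genes with a summit in all 3. Acbp1 and Piezo share 1 peak with ranks 235, 136 and 210, a mean difference of 0.0429. Dp1 ranked 210, 200 and 181, a difference of 0.0577, and imd, which shares that peak, tied with it.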

How the data were processed

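The authors deposited peak lists on dm6 for each of 3 replicates, for the pooled replicates and at an IDR threshold, per the README listings. What aligner and peak caller they used is not given in the sources used here. For every peak there is the authors' signal value (column 7) and a deposited column read as −log10 of a q-value by the narrowPeak layout; ranks here use the signal, ties taking the best rank. The lists hold no read counts, so depth is unknown. A summit is the start plus column 10. Genes came from Ensembl release 115 (BDGP6.54, dm6 coordinates) and sequence from RefSeq. The interval includes 254 bp farther than 5 kb from any member, with no summit. Analysis used Python 3.11.15, numpy 2.4.6 and pandas 2.3.3, tested on simulated data.

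The members and lists were chosen with earlier results of these data known. Named are all members, every other gene starting in the interval, the 8 strongest Notch pathway genes (N, Su(H), Delta and Ser were added after their values were seen) and the 3 genes ranking most like the strongest member. In the lists, Dl, nct, h and Her were read under the annotation's symbols Delta, Nct, hry and Hesr, and BobB was not analysed here. Alternatives covered windows, flanks, matching, list length and leaving out replicates.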

Additional observations from a re-analysis of the deposited data

How the results depend on the processing

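The count of 13 IDR peaks in the interval stayed within 1.5 times under every alternative run, with 13 at flanks of 2 kb and 10 kb, and 9 to 11 when 1 replicate was left out and the IDR peaks had to match both others. IDR summits at member promoters numbered 3 to 4 in those runs, all at bHLH genes, since E(spl)mbeta-HLH was lost without replicate 2 or 3. The window mattered more. Within 250 bp the count was 1 member, 1 of them bHLH. There 3 members had a summit in all 3 replicates, against 8 within 1000 bp and 5 within 500 bp. Of the 13945 protein-coding genes, 4753 outside the complex had one in all 3 replicates within 500 bp. Within 1000 bp 1 Bearded-family gene had an IDR summit. The log10 rank difference, bHLH minus Bearded, was -0.13 within 250 bp and -0.21 within 1000 bp, against -0.76, and -0.84 to -0.68 without 1 replicate. With the member required to hold the nearest TSS, 2 members remained, and Su(H) words were at 6 members upstream of the TSS against 1 of the IDR summits. The summits of E(spl)m7-HLH, E(spl)m3-HLH and E(spl)mdelta-HLH lie 361 to 416 bp upstream, outside 250 bp. Median ranks of 6 single members also moved, at 250 or 1000 bp. No paired analysis was possible because there is 1 group. Depth is unknown, and a missing peak can lie beyond the end of a list.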
